A study of Mus musculus with 26 samples.

Results

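Gene expression was compared between the cortex of sham-operated mice kept on a high-fat diet and the cortex of sham-operated mice kept on a control diet, in 6 of the 26 libraries of a study of diet and stroke. The high-fat sham group held 3 libraries of C57BL/6J mice, an inbred strain that gains weight on fat-rich food, kept for 6 weeks on a diet with 60% of its calories from fat. The control sham group held 3 libraries of the same strain, kept for 6 weeks on a diet with 6% of its calories from fat. Both groups had the sham operation in place of focal ischemia, so neither is cortex of unoperated mice. The labels name no transgene and give no age, sex or body weight, and they do not say when after the operation the sham tissue was taken. Stroke libraries are used here only beside the sham values. They comprised 6 high-fat and 4 control libraries of the 6-week arm, and 6 high-fat and 4 control libraries of the 15-week arm. All stroke tissue was taken 3 days after stroke. The 26 libraries held no sham tissue of the 15-week arm. The comparison addresses what the diet alone changes in cortex RNA.

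The adult cortex takes up glucose and ketone bodies across the blood-brain barrier and makes nearly all of its own cholesterol, because plasma lipoproteins do not cross that barrier. Neurons answer synaptic activity with short-lived transcripts, and many cells answer the glucocorticoids released in stress by inducing a set of target genes. Immediate early genes such as Fos, Junb and Arc are the usual examples of the first kind and Fkbp5 and Ddit4 of the second. Fat-rich feeding is known mainly for its effects on liver, fat tissue and hypothalamus, where it alters lipid genes, insulin signalling and inflammation, and each of these pathways has genes that the cortex also expresses.

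Each of the 6 libraries held between 14409486 and 15800117 counts in genes, and 16325 genes had enough counts to be tested. Levels are in CPM, a library's counts for a gene scaled to a common total over all genes, with the TMM method's correction between libraries. The libraries matched their tissue label, since the cortical projection neuron genes Slc17a7 and Tbr1 were at 454 to 575 and 25.3 to 50.3 CPM, and only 5 of 15 hypothalamus markers had enough counts to be tested. They matched the sham label as well, because the summed level of 16 reactive astrocyte genes was between 178 and 217 CPM in the sham libraries and between 854 and 1712 CPM in the 6-week stroke libraries. High-fat sham replicate 2 stood apart from the others. Its score on the first principal component, which held 42.03% of the variance, was 21.8, while the other 5 libraries lay between -9.28 and 3.95. The chi-square per degree of freedom between counts of a pair, which is near 1 for counting error alone, was 19.1 to 29.2 for pairs of high-fat libraries and 4.84 to 7.16 for pairs of control libraries. The labels leave unsaid whether the libraries are separate animals, so p-values here measure the spread between libraries. For the main gene tests that spread was estimated over all 26 libraries, stroke libraries included.

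No gene passed an adjusted p of 0.05 in edgeR's quasi-likelihood test, 0% of the 16325 tested. DESeq2 called 2 genes, Junb and Tfrc, both lower in high-fat sham, and voom with quality weights called Junb alone. At an unadjusted p under 0.05, 341 genes were higher in high-fat sham, 2.09% of those tested, and 441 were lower, 2.7%. With no difference between groups, that threshold passes a share of about 0.05 over both directions, so these counts show no excess. The 3 high-fat libraries all lay above the 3 control libraries for 761 genes, 4.66%, and all below them for 1143 genes, 7%. With no difference, 3 against 3 libraries separate for a share of about 0.1, both directions together. Of all genes tested, 7614 lay above 0 on the log2 scale and 8692 below. The observed shares and this split are the background for the counts of genes in sham cortex below. Without high-fat replicate 2, 147 genes were higher and 161 lower at an unadjusted p under 0.05. Differences were small, with a median absolute log2 fold change of 0.088 and a median SE of 0.11 for the 11648 genes with a mean of at least 5 CPM. Adjusted p-values in edgeR's test were 0.781 for Junb and Tfrc and at least 0.965 for every other gene named below. For no gene does "higher" or "lower" below mean that it passed that test.

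**Figure D1:**
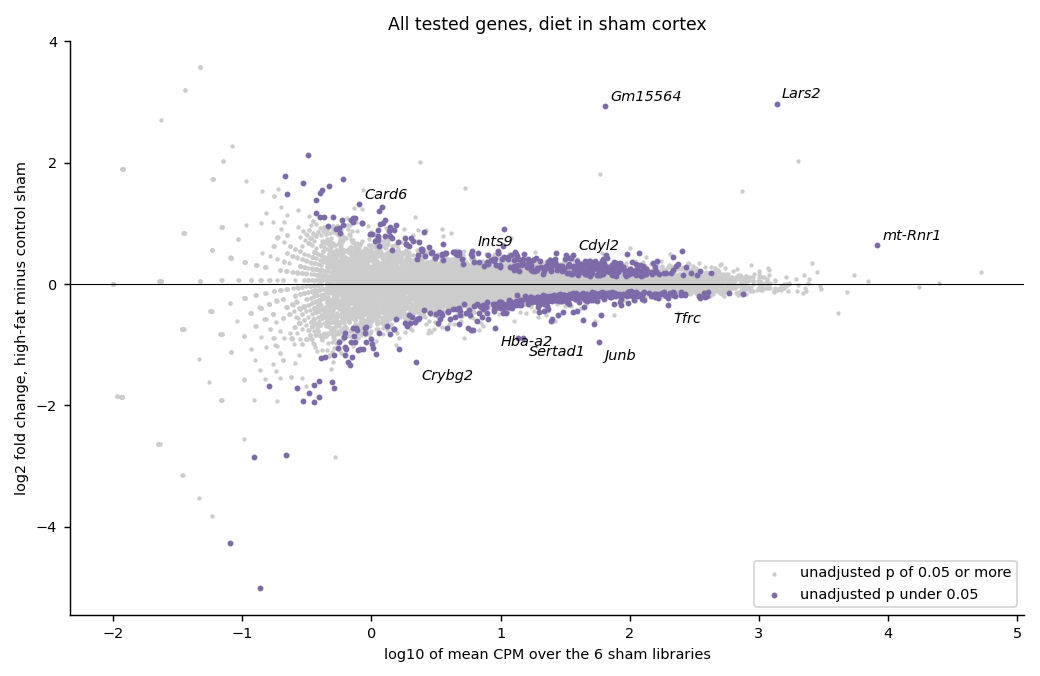
Log2 fold change (high-fat minus control sham) against the log10 of the mean CPM over the 6 sham libraries, 1 point per tested gene, with the 782 genes at an unadjusted p under 0.05 in purple. Junb and Tfrc lie below 0 at high expression, and Lars2, Gm15564 and mt-Rnr1 lie above 0 at high expression.

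Junb had the smallest p of all genes. It encodes a partner of Fos in the AP-1 transcription factor and is an immediate early gene. It stood at 28.5, 50.6 and 38.3 CPM in the high-fat sham libraries, against 69.1, 68.8 and 90.0 CPM in the control sham libraries. The highest high-fat library was thus below the lowest control library. The means were 39.1 ± 11.1 CPM in high-fat sham and 76.0 ± 12.1 CPM in control sham (SD, n = 3 each). The log2 fold change was -0.96 ± 0.20 (SE, adjusted p = 0.781 in edgeR), and it lay between -1.18 and -0.75 when any 1 library was left out. DESeq2 gave -0.95 ± 0.20 with an adjusted p of 0.0273, and voom gave -1.06 ± 0.15 with an adjusted p of 0.00232. The voom quality weights of high-fat sham replicates 1, 2 and 3 were 0.77, 0.60 and 3.05. Those of control sham were 0.98, 1.32 and 2.20. High-fat replicate 2, with the lowest of these weights, was the high-fat library nearest the control libraries for Junb. The Junb locus overlaps Prdx2, a peroxide-reducing enzyme, on the opposite strand. Whether the counting used strand is not given in the sources used here. Prdx2 was at 187, 162 and 170 CPM in high-fat sham, against 179, 185 and 189 CPM in control sham, a log2 fold change of -0.09 ± 0.06 with overlapping libraries.

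Sertad1 and Gadd45b were chosen for a small p without overlap between libraries. Ddit4 had the smallest p of the glucocorticoid response genes. All 3 lay below control in every high-fat library, which the choice required for Sertad1 and Gadd45b. Sertad1, a regulator of cyclin-dependent kinase 4, was at 10.95, 11.6 and 8.99 CPM in high-fat sham, against 29.5, 13.4 and 15.4 CPM in control sham. Gadd45b, an activity and stress gene linked to DNA demethylation, was at 9.44, 10.4 and 8.77 CPM in high-fat sham, against 25.9, 13.4 and 13.8 CPM in control sham. Control replicate 1 was well above the other control libraries for both genes. Their log2 fold changes were -0.88 ± 0.20 and -0.89 ± 0.24 (SE), and without control replicate 1 they were -0.45 and -0.51. Ddit4, a glucocorticoid-induced inhibitor of mTOR signalling also known as REDD1, was at 20.0, 17.4 and 22.0 CPM in high-fat sham, against 32.0, 23.9 and 23.2 CPM in control sham, a log2 fold change of -0.41 ± 0.12 (SE) that was -0.25 without control replicate 1. Ier5l, an immediate early response family member, was at 5.98, 6.31 and 7.004 CPM in high-fat sham, against 11.2, 7.55 and 10.03 CPM in control sham. Its groups did not overlap either.

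The promoters of Junb, Gadd45b and the immediate early gene Nr4a1 are printed to show which of them hold the core of the cAMP response element, through which activity induces many immediate early genes. The sequences are from RefSeq on GRCm38.p6, from 250 bases before to 50 bases after the annotated start, in the direction of the gene. Junb is at chr8:84978699-84978998 on the minus strand, Nr4a1 at chr15:101266596-101266895 on the plus strand and Gadd45b at chr10:80929841-80930140 on the plus strand. Capitals mark the core TGACG or its reverse complement CGTCA, and the E-box CACGTG.
Junb promoter: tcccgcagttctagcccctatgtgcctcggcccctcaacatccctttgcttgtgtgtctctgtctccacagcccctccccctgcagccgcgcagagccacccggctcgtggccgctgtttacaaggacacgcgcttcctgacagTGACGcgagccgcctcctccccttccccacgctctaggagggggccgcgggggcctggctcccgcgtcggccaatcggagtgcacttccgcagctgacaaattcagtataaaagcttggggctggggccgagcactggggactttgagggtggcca
Nr4a1 promoter: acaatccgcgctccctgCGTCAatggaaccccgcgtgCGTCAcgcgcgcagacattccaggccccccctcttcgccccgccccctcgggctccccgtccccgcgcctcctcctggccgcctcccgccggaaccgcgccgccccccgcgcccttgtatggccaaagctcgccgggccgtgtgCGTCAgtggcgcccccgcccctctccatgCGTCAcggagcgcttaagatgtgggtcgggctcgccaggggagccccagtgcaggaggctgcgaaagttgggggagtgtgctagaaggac
Gadd45b promoter: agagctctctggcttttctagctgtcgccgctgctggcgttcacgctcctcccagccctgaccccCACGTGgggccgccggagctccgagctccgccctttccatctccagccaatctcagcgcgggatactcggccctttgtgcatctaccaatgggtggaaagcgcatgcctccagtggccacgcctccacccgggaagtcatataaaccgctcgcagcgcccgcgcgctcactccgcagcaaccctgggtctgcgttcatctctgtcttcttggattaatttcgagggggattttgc

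Junb held the core TGACG at 1 place, with its first base at -106 from the start, and Nr4a1 held CGTCA at 4 places, at -233, -213, -69 and -40. Gadd45b held no core and 1 E-box, at -185. The windows of Sertad1, Ddit4 and Ier5l held neither. Among all 32851 promoters of the table, 20.8% held the core on either strand, 7.15% the E-box and 1.79% the full element TGACGTCA, which none of these 6 windows held. The short glucocorticoid receptor motif AGAACA, held by 19.0% of promoters on either strand, was found once each in Sertad1, at 40, and Ier5l, at -235. A match is only a run of letters, and its absence says only that these letters are not in this window.

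Of the 32 immediate early genes, all tested, 8 lay above 0 and 24 below, with a median log2 fold change of -0.23, against -0.01 over all genes tested. With an unadjusted p under 0.05 there were 1 higher and 5 lower, and 3 were lower with no overlap between libraries. Nr4a1, an orphan nuclear receptor induced by activity, was at 23.8, 48.9 and 30.4 CPM in high-fat sham, against 38.3, 51.5 and 66.5 CPM in control sham. Fos was at 11.2, 25.3 and 11.2 CPM in high-fat sham, against 18.5, 22.0 and 28.9 CPM in control sham. Arc, which encodes a postsynaptic protein that removes AMPA receptors, was at 135, 297 and 155 CPM in high-fat sham, against 187, 258 and 375 CPM in control sham. In all 3 genes, high-fat replicate 2 reached into the control range while the other high-fat libraries were low. Without it, 1 of the 32 was higher and 11 were lower at an unadjusted p under 0.05, and the median was -0.32. Without control replicate 1, none was higher and 6 were lower at that p, 14 lay above 0 and 18 below, and the median was -0.05.

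Fosb and Nptx2 showed another pattern, in which 1 control library carried the difference. Fosb, a slower member of the Fos family, was at 4.83, 7.66 and 4.39 CPM in high-fat sham, against 18.5, 4.34 and 4.40 CPM in control sham. Nptx2, a secreted synaptic pentraxin induced by activity, was at 43.6, 43.5 and 39.8 CPM in high-fat sham, against 117, 39.7 and 37.7 CPM in control sham. Control replicate 1 was high in both genes, and the log2 fold changes of -0.69 and -0.62 became 0.36 and 0.13 without it. Egr1, a zinc finger immediate early gene, was at 42.6, 102 and 50.4 CPM in high-fat sham, against 46.8, 50.5 and 71.97 CPM in control sham, and high-fat replicate 2 was the highest. Klf6, a zinc finger gene of injury responses, was the 1 member higher at an unadjusted p under 0.05. It was at 99.7, 96.2 and 94.1 CPM in high-fat sham, against 69.4, 97.2 and 78.4 CPM in control sham, and the groups overlapped. Its log2 fold change of 0.24 was 0.14 without control replicate 1.

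**Figure D2:**
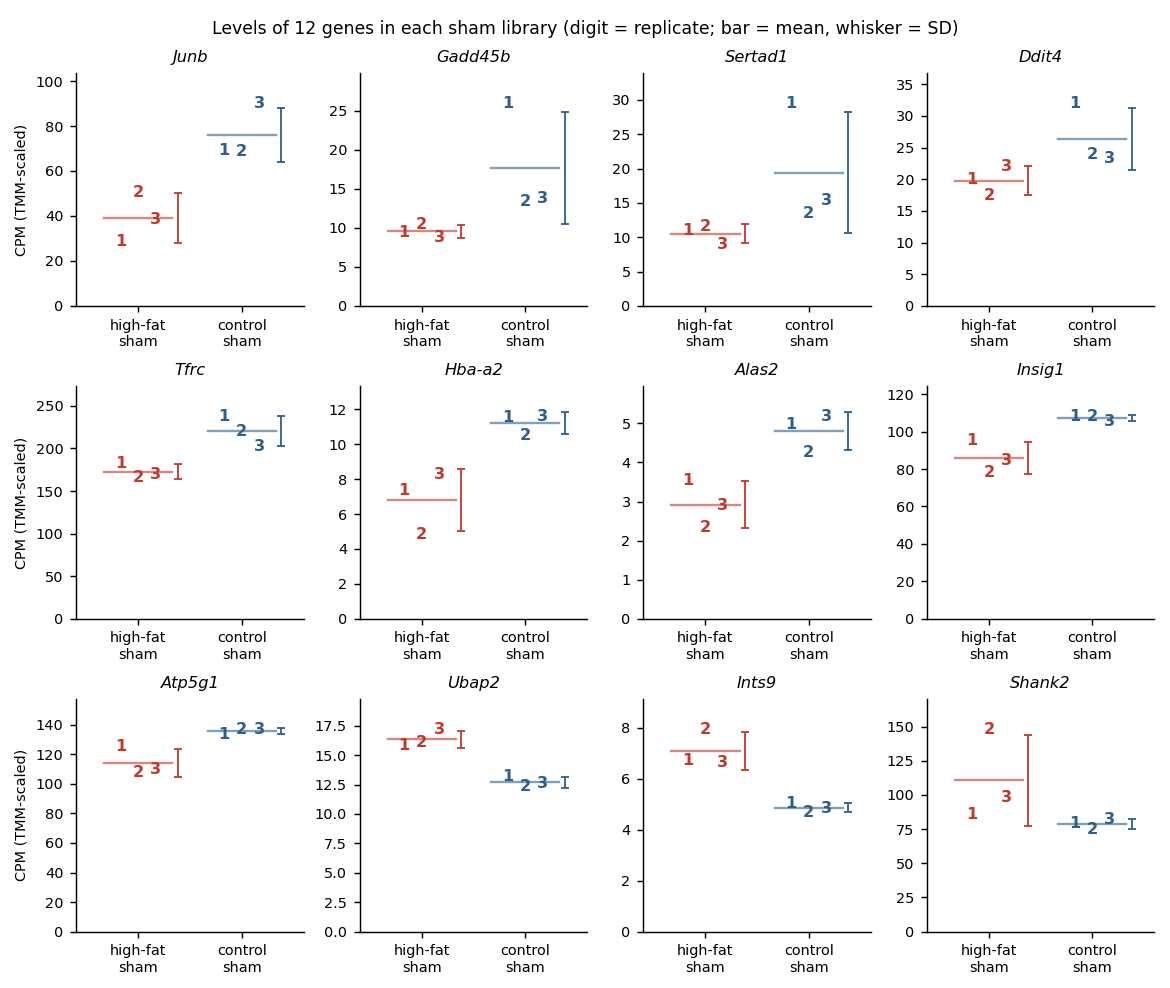
CPM of 12 genes in each sham library (points), with the group means (bars), high-fat sham left and control sham right in each panel, each panel with its own scale. Junb and Tfrc have 3 high-fat points below all control points, and for Sertad1 and Gadd45b the highest control point is replicate 1.

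Of 22 tested genes of the glucocorticoid response, 17 lay below 0 and 5 above, the median was -0.13, and 2 were lower at an unadjusted p under 0.05, Ddit4 and Lcn2. Lcn2, which encodes the iron-trafficking protein lipocalin 2, had no count in any high-fat sham library and was at 0.62, 0.07 and 0.13 CPM in control sham, levels too low for a fold change to be given. Tsc22d3, known as GILZ, was at 132, 106 and 127 CPM in high-fat sham, against 156, 137 and 131 CPM in control sham. Those groups overlapped. Without control replicate 1 the list had 10 members above 0 and 12 below. Of 20 circadian clock genes, which can report a difference in the hour of sampling, 12 lay above 0 and 8 below, with a median of 0.06. It was -0.01 without high-fat replicate 2, with 10 on either side. Arntl (BMAL1), of the activating arm of the clock, was at 54.5, 51.6 and 44.9 CPM in high-fat sham, against 38.5, 46.1 and 41.9 CPM in control sham. Ciart, a clock repressor, was at 7.85, 8.72 and 11.2 CPM in high-fat sham, against 10.7, 13.2 and 14.7 CPM in control sham. These were the 2 clock genes at an unadjusted p under 0.05, in opposite directions, and both overlapped between groups. The part of sampling time in these differences was not tested.

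Tfrc, the gene with the second smallest p, encodes the transferrin receptor that brings iron into cells and is high in brain capillaries and neurons. It stood at 182, 166 and 170 CPM in the high-fat sham libraries, against 238, 220 and 203 CPM in the control sham libraries. Every high-fat library was below every control library. Its means were 173 ± 8.6 CPM in high-fat sham and 220 ± 17.6 CPM in control sham (SD, n = 3 each). The log2 fold change was -0.35 ± 0.08 (SE, adjusted p = 0.781 in edgeR), it lay between -0.39 and -0.29 when any 1 library was left out, and DESeq2 gave -0.34 ± 0.08 with an adjusted p of 0.0381. In the stroke arms Tfrc was closer between the diets, with log2 fold changes of -0.03 at 6 weeks and -0.05 at 15 weeks.

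Tfrc mRNA is stabilised when cells lack iron, through hairpins in its 3′ untranslated region to which iron regulatory proteins bind, and these hairpins are printed as the element by which its level is known to be set. They were found in the GENCODE M21 transcript Tfrc-201 (chromosome 16, 4890 bases, last coding base 2432), by the loop CAGTGN closed by a stem with a single unpaired C on its 5′ side. Capitals mark the loop.
Tfrc hairpin 1: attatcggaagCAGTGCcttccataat
Tfrc hairpin 2: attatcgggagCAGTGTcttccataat
Tfrc hairpin 3: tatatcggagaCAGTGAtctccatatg
Tfrc hairpin 4: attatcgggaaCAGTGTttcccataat

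They start at transcript bases 3316, 3695, 3760 and 3807, all after the coding sequence. Of 21877 protein-coding genes, searched in their longest transcript, 22 held at least 1 such hairpin, 0.101%, and 1 gene held 3 or more, which was Tfrc. The hairpins say nothing of iron levels in these libraries, which were not measured.

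Globin genes and Alas2 lay below every control library in each high-fat sham library. Hba-a2, an adult alpha globin gene, was at 7.35, 4.82 and 8.28 CPM in high-fat sham, against 11.6, 10.5 and 11.6 CPM in control sham. Alas2, the erythroid enzyme that begins haem synthesis, was at 3.53, 2.34 and 2.90 CPM in high-fat sham, against 4.98, 4.27 and 5.18 CPM in control sham. Their groups did not overlap, and both log2 fold changes were -0.72, with SEs of 0.24 and 0.30. Hbb-bs, an adult beta globin gene, was at 68.8, 52.9 and 66.2 CPM in high-fat sham, against 101, 80.9 and 86.0 CPM in control sham. Hba-a1 and Hbb-bt were lower in every high-fat library too, but near-identical globin copies can share fragments, so their separate values are uncertain.

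Across the blood cell list, 11 of 14 members were tested and all 11 lay below 0, with a median of -0.58. At an unadjusted p under 0.05, 4 were lower and none higher, and 5 were lower without overlap. Without high-fat replicate 2, which had the lowest globin levels, 12 members were tested, 0 reached that p in edgeR, 10 lay below 0 and the median was -0.36. Haemoglobin genes took 0.0100%, 0.0074% and 0.0100% of counts in high-fat sham, against 0.0153%, 0.0124% and 0.0133% in control sham. The exact two-sided permutation test gave p = 0.1, the smallest that 3 against 3 libraries allow, and 0.824 adjusted over 84 measures. The neutrophil genes Ngp and Camp had at most 1 count in a sham library. In such tissue RNA, fewer cells of a type and less RNA per cell cannot be told apart, here or for the other cell types below. How much blood each piece of tissue held was not measured.

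The interferon response genes report type I interferon signalling, and the antigen presentation list holds genes of the class I and class II pathways. Both lists lay mostly below control in high-fat sham and above control in high-fat stroke. Of 22 interferon genes, 21 lay below 0 in sham with a median of -0.44. None passed an unadjusted p of 0.05, and 2 were lower and 1 higher without overlap. Ifit1, an antiviral RNA-binding protein, was at 3.82, 4.18 and 3.04 CPM in high-fat sham, against 7.13, 8.74 and 4.595 CPM in control sham. Gbp3, an interferon-induced GTPase, was at 5.55, 4.96 and 4.74 CPM in high-fat sham, against 7.40, 9.23 and 6.73 CPM in control sham. These were the 2 members lower without overlap. Ifit3, at 10.3, 10.4 and 9.41 CPM in high-fat sham and 17.2, 20.0 and 9.06 CPM in control sham, did not separate the groups. Control replicates 1 and 2 were high, while control replicate 3 was level with the high-fat libraries. The summed level of the list was 128, 124 and 114 CPM in high-fat sham, against 158, 179 and 119 CPM in control sham (exact two-sided permutation p = 0.3, or 0.824 adjusted over 84 measures). Without control replicate 2, the list had 5 genes above 0 and 17 below, with a median of -0.27.

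Antigen presentation genes had 16 of 18 members below 0 and a median of -0.28. H2-DMa was lower at an unadjusted p under 0.05 and no member was higher, and 5 members were lower without overlap. Without control replicate 2 the list had 6 members above 0 and 12 below, with a median of -0.13. No member reached that p in edgeR without high-fat replicate 2, and the median was then -0.15. Where the fit took in each library's share of fragments outside genes, the median was -0.10, with 5 above 0 and 13 below. H2-DMa, which loads peptides on class II molecules, was at 7.35, 5.82 and 5.59 CPM in high-fat sham, against 9.55, 7.83 and 7.70 CPM in control sham. H2-K1, a classical class I heavy chain, was at 18.4, 19.0 and 18.8 CPM in high-fat sham, against 27.8, 29.8 and 22.1 CPM in control sham. The class I genes H2-D1 and H2-Q4 and the peptide transporter gene Tap1 were the others below control in all libraries, with log2 fold changes of -0.39, -0.81 and -0.43. In the 6-week stroke libraries all 22 interferon genes and all 18 antigen presentation genes lay above 0 for the same diet contrast, with medians of 0.51 and 0.45. In the 15-week stroke libraries it was 22 of 22 and 17 of 18, with medians of 0.59 and 0.32. How all tested genes split about 0 in the stroke arms is not given, so sign counts there, here and below, lack that background. For an unadjusted p under 0.05 in edgeR's test, in which no gene passed adjustment in either arm, 0 interferon genes were higher in 6-week stroke, against 2.98% of all genes, and 1 in 15-week stroke, against 3.13%. Of the 18 antigen presentation genes, 2 were higher at that p in 6-week stroke and 0 in 15-week stroke. The summed interferon level was 429 to 827 CPM in 6-week high-fat stroke and 361 to 571 CPM in 6-week control stroke, and those groups overlapped. No interferon gene was called for the difference between sham and stroke.

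**Figure D3:**
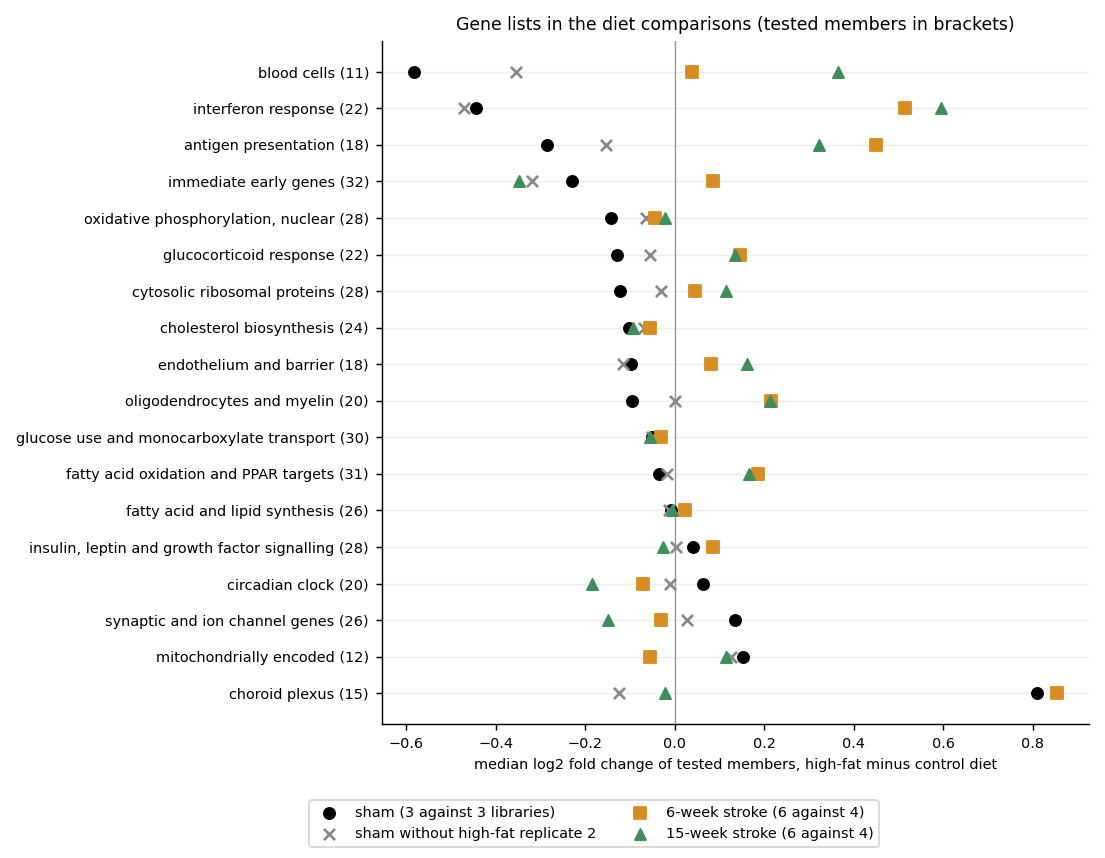
Median log2 fold change (high-fat minus control diet) of the tested members of 18 gene lists in sham cortex, in sham cortex without high-fat replicate 2, in 6-week stroke and in 15-week stroke. Interferon and antigen presentation lists lie left of 0 in sham and right of 0 in both stroke arms, and the choroid plexus point moves from 0.81 to -0.12 without replicate 2.

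Among metabolic genes, those of cholesterol synthesis lay mostly just below control. Of 24 tested members, 19 were below 0 and 5 above, the median was -0.10, 3 were lower at an unadjusted p under 0.05 and none higher, and 4 were lower without overlap. Leaving out high-fat replicate 2 gave 1 lower at that p, 21 below 0 and a median of -0.07. Insig1, which holds the sterol sensor SCAP in the endoplasmic reticulum and is itself a target of the SREBP factors, was at 95.2, 78.3 and 84.8 CPM in high-fat sham, against 108, 108 and 105 CPM in control sham. Every high-fat library was below control, and its log2 fold change was -0.32 ± 0.10 (SE). Pmvk, phosphomevalonate kinase, was at 36.2, 33.5 and 34.4 CPM in high-fat sham, against 46.4, 38.5 and 38.3 CPM in control sham, also without overlap. Its log2 fold change of -0.24 was -0.14 without control replicate 1. Mvk, mevalonate kinase, was at 12.8, 11.1 and 11.7 CPM in high-fat sham, against 16.2, 14.6 and 12.7 CPM in control sham. The summed level of the list was 1510, 1449 and 1455 CPM in high-fat sham, against 1636, 1536 and 1529 CPM in control sham, with no overlap (exact two-sided permutation p = 0.1, or 0.824 adjusted over 84 measures). For the same diet contrast, 18 of the 24 lay below 0 in 6-week stroke and 20 in 15-week stroke.

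The promoter of Insig1 (RefSeq, GRCm38.p6, chr5:28071162-28071461, plus strand) is printed because SREBP factors can bind E-boxes as well as sterol elements. It held 1 E-box, CACGTG, at -101, and 1 CGTCA core at -240, both in capitals, and no match to the sterol element TCACNCCAC, which 1.24% of all promoters of the table held on either strand. The E-box was held by 7.15% of promoters. The windows of Pmvk and Mvk held neither an E-box nor a sterol element.
Insig1 promoter: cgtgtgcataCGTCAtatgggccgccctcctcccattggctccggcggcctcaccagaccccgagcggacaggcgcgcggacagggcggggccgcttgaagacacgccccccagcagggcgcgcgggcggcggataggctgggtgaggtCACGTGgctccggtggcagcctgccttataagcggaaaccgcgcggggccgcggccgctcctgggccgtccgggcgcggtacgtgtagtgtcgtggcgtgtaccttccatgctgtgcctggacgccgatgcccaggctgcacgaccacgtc

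The list of fatty acid oxidation genes and targets of the PPAR receptors had 13 of 31 tested members above 0 and 18 below, with a median of -0.04. Pdk4, the pyruvate dehydrogenase kinase that PPARs induce in muscle and heart, was at 10.4, 10.1 and 9.55 CPM in high-fat sham, against 10.8, 10.7 and 10.8 CPM in control sham, a log2 fold change of -0.11 ± 0.12 (SE). Ucp3, a mitochondrial carrier, was at 1.87, 1.49 and 1.42 CPM in high-fat sham, against 2.21, 2.24 and 2.40 CPM in control sham, and was the 1 member lower at an unadjusted p under 0.05. No member reached it in edgeR when high-fat replicate 2 was left out. In the lipid synthesis list, 12 of 26 members lay above 0 and 14 below, the median was -0.01 and none reached that p in edgeR. Scd1, a stearoyl-CoA desaturase, was at 139, 161 and 128 CPM in high-fat sham and 160, 146 and 147 CPM in control sham, a log2 fold change of -0.08 ± 0.09 (SE). The 2 desaturase genes differed in sign, since Scd2, the main brain form, had 0.15 ± 0.10 (SE), and neither separated the groups.

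Glucose use and monocarboxylate transport genes lay below 0 in 22 of 30 cases, with a median of -0.05. There were 3 lower and none higher at an unadjusted p under 0.05, and 6 were lower and 1 higher without overlap. None reached that p in edgeR without high-fat replicate 2, while 23 lay below 0. Slc16a1, the transporter MCT1 for lactate and ketone bodies in capillaries and glia, was at 46.3, 42.2 and 47.2 CPM in high-fat sham, against 60.0, 53.7 and 49.7 CPM in control sham, without overlap. Its log2 fold change was -0.27 ± 0.10 (SE). Bdh1, the ketone body enzyme 3-hydroxybutyrate dehydrogenase, was at 42.9, 41.5 and 47.3 CPM in high-fat sham, against 50.4, 48.3 and 48.6 CPM in control sham. Pgk1, a glycolytic kinase, was at 268, 237 and 258 CPM in high-fat sham, against 279, 295 and 277 CPM in control sham. The ketone transferase gene Oxct1, at 420, 388 and 429 CPM in high-fat sham and 412, 449 and 443 CPM in control sham, overlapped.

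In the insulin, leptin and growth factor list, 17 of 28 tested members lay above 0 and 11 below, with a median of 0.04, and 2 were higher at an unadjusted p under 0.05. None was higher and 1 was lower at that p without high-fat replicate 2, with 15 above 0 and 13 below. Igfbp5, an IGF-binding protein, was at 61.2, 76.1 and 59.6 CPM in high-fat sham, against 53.6, 48.4 and 56.4 CPM in control sham, without overlap and with a log2 fold change of 0.31 ± 0.15 (SE) that was 0.20 without high-fat replicate 2. Irs1, an adaptor of the insulin and IGF1 receptors, was at 20.5, 35.1 and 24.8 CPM in high-fat sham, against 21.03, 19.4 and 24.9 CPM in control sham, so that replicate 2 alone was above the control range. Without that library its log2 fold change was 0.07. The leptin receptor gene Lepr was at 5.40, 7.73 and 5.09 CPM in high-fat sham and 4.57, 5.32 and 5.83 CPM in control sham, and the groups overlapped.

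Genes of the respiratory chain and of ribosomes lay mostly below control and synaptic genes mostly above it. Of 28 nuclear genes of oxidative phosphorylation, 27 lay below 0 with a median of -0.14, 11 were lower at an unadjusted p under 0.05 and none higher, and 10 were lower without overlap. Atp5g1, for a subunit of the ATP synthase ring, was at 125, 108 and 109 CPM in high-fat sham, against 134, 137 and 137 CPM in control sham. Its log2 fold change was -0.25 ± 0.08 (SE). Ndufa2, of complex I, was at 49.1, 42.7 and 45.3 CPM in high-fat sham, against 52.02, 55.3 and 53.5 CPM in control sham. Cox8a, of complex IV, was at 359, 283 and 328 CPM in high-fat sham, against 374, 386 and 376 CPM in control sham. High-fat replicate 2 was the lowest library for all 3. Fis1, a gene of mitochondrial fission outside the list, was at 104, 88.8 and 102 CPM in high-fat sham, against 113, 120 and 118 CPM in control sham.

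All 28 cytosolic ribosomal protein genes lay below 0, with a median of -0.12, and none reached an unadjusted p of 0.05 in edgeR's test, while 6 were lower without overlap. Of 26 synaptic and ion channel genes, 23 lay above 0 with a median of 0.14, 1 was higher at that p and 4 were higher without overlap. Shank2, a scaffold of the postsynaptic density, was at 85.7, 148 and 97.99 CPM in high-fat sham, against 78.9, 74.98 and 81.9 CPM in control sham, with a log2 fold change of 0.49 ± 0.19 (SE). Vamp2, a vesicle fusion protein of the synapse, was at 110, 213 and 138 CPM in high-fat sham and 107, 101 and 130 CPM in control sham. In both genes replicate 2 was far above the rest, and without it their log2 fold changes were 0.24 and 0.15.

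The values of these lists moved with transcript length and with 1 library. Across 16120 genes, the log2 fold change had a Spearman correlation of 0.30 with the log of the longest annotated transcript. Taken in 5 bins of equal size, its median was -0.09, -0.05, -0.02, 0.01 and 0.07 between the shortest and the longest. At an unadjusted p under 0.05, 27 genes were higher and 163 lower in the shortest bin, while 171 were higher and 21 lower in the longest. The deviation of each library from the other 5 had a correlation with length of -0.20, 0.38 and 0.11 in the high-fat sham libraries, against -0.16, -0.26 and -0.07 in the control sham libraries. High-fat replicate 2 was the most extreme, but high-fat replicate 1 was like the controls. Without replicate 2 the medians were -0.06 for oxidative phosphorylation, with 1 gene lower at that p, -0.03 for ribosomal proteins and 0.03 for synaptic genes, of which none reached that p in edgeR. With a length term per library, chosen after seeing the data, they were -0.07, -0.05 and 0.03, and 1 oxidative phosphorylation gene was lower at that p. The share of uniquely placed fragments outside genes, a sign of unspliced or intergenic RNA, was 34.1%, 37.6% and 37.5% in high-fat sham, against 35.5%, 34.0% and 32.9% in control sham.

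**Figure D4:**
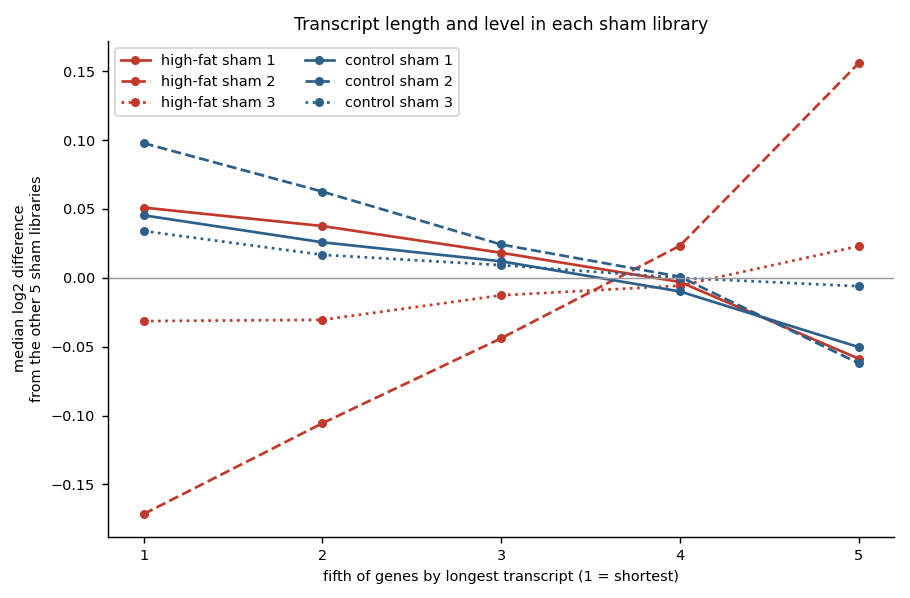
Median log2 difference of each sham library from the other 5, over the tested genes in 5 equal bins of longest annotated transcript, with high-fat sham in red and control sham in blue. High-fat replicate 2 runs from -0.17 in the shortest bin to 0.16 in the longest, and high-fat replicate 1 runs the other way, as the control libraries do.

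Mitochondrially encoded transcripts were counted unevenly, so their list cannot be set against the nuclear genes of the same enzyme complexes. The large ribosomal RNA mt-Rnr2 was at 42910 to 66980 CPM, of a summed 71502 to 102990 CPM. In contrast, mt-Co2 was at 0.21 to 0.84 CPM, and mt-Atp6, mt-Atp8 and mt-Nd4l had at most 4, 1 and 0 counts in a sham library. Of 15 members, 12 were tested. Of these, 8 lay above 0 with a median of 0.15, and mt-Rnr1, the small ribosomal RNA of the organelle, was the 1 member higher at an unadjusted p under 0.05. It was at 8599, 7080 and 14270 CPM in high-fat sham, against 5769, 7407 and 6094 CPM in control sham, with overlap. Its log2 fold change of 0.64 was 0.29 without high-fat replicate 3. The share of counts in mitochondrially encoded genes was 8.90%, 6.95% and 9.73% in high-fat sham, against 7.46%, 8.21% and 7.32% in control sham. The 2 libraries highest in mt-Rnr1 were also the highest in Lars2, the leucyl-tRNA synthetase of mitochondria, and in Gm15564, a predicted gene annotated across Kpna1 and Parp9 on the opposite strand. Lars2 was at 786, 138 and 6365 CPM in high-fat sham, against 254, 373 and 302 CPM in control sham. Gm15564 was at 39.3, 7.16 and 295 CPM in high-fat sham, against 11.8, 18.6 and 14.5 CPM in control sham. Their log2 fold changes of 2.97 and 2.93, the largest at an unadjusted p under 0.05 and a mean of at least 1 CPM, rested on replicate 3 and were 0.58 and 0.63 without it.

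Of genes higher in high-fat sham without overlap, 12 are named by their smallest p. Ubap2, a ubiquitin-binding protein, was at 15.8, 16.03 and 17.2 CPM in high-fat sham, against 13.2, 12.3 and 12.6 CPM in control sham, a log2 fold change of 0.36 ± 0.09 (SE). Small RNA genes are annotated inside Ubap2, and which gene such fragments were counted for is not given in the sources used here. Ints9, a subunit of the Integrator complex that cleaves nascent transcripts, was at 6.70, 7.94 and 6.65 CPM in high-fat sham, against 5.05, 4.69 and 4.85 CPM in control sham, a log2 fold change of 0.54 ± 0.14 (SE). Both genes had 3 high-fat libraries close together, and above all controls as the choice required. The chromatin reader Cdyl2, the histone gene Hist2h4, the mRNA-binding protein Larp1, Fam193a, the organic anion transporter Slco3a1, the cohesin loader Nipbl, the transcription factor Atf7, the zinc finger gene Prdm2, the Polycomb subunit Pcgf3 and the deubiquitinase Usp19 completed the 12. Their log2 fold changes lay between 0.23 and 0.48. Those of Larp1, Atf7 and Pcgf3, at 0.31, 0.48 and 0.24, were 0.19, 0.31 and 0.16 without high-fat replicate 2.

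The 12 lower genes, named by smallest p among genes without overlap, included Junb, Tfrc, Sertad1, Gadd45b and Fis1, given above. Coq10b, which carries coenzyme Q in the inner mitochondrial membrane, was at 35.0, 29.7 and 34.0 CPM in high-fat sham, against 48.1, 41.6 and 44.2 CPM in control sham, a log2 fold change of -0.44 ± 0.12 (SE). Apex1, the main endonuclease of base excision repair, was at 32.7, 25.5 and 29.5 CPM in high-fat sham, against 35.4, 36.3 and 35.7 CPM in control sham. Gpr62, an orphan receptor of mature oligodendrocytes, was at 7.57, 5.89 and 6.30 CPM in high-fat sham, against 9.48, 9.86 and 8.29 CPM in control sham. None of the 3 overlapped between groups, which the choice required. The log2 fold change of Apex1, -0.29, was -0.19 without high-fat replicate 2. Coq10b and Gpr62 have annotated neighbours on the opposite strand within their loci. Slc7a6os, the glycogen phosphatase gene Epm2a, the iron-sulphur assembly gene Nubp2 and Pak1ip1 completed the 12, with log2 fold changes between -0.33 and -0.22.

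Of genes with a large fold change but few counts, Card6 and Itga10 were higher in every high-fat library, with log2 fold changes of 1.31 and 1.27. Gpr160, Jaml and Gm9843 were lower in every one, with -1.16, -1.09 and -1.07. All 5 had a mean of at most 1.71 CPM in either group. Card6 was at 0.79 and Jaml at -0.71 without high-fat replicate 2, and Itga10 was at 2.06 without control replicate 1. Crybg2 was at 1.08, 1.63 and 1.13 CPM in high-fat sham, against 6.78, 1.40 and 1.29 CPM in control sham. Its log2 fold change of -1.29 rested on control replicate 1 and was -0.07 without it.

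Among cell type markers, 2 lists of neighbouring tissue varied widely between libraries of the same diet. Choroid plexus genes lay above 0 in 14 of 15 tested members of 20, with a median of 0.81, but none reached an unadjusted p of 0.05 in edgeR and none separated the groups. Ttr, the thyroxine carrier that the choroid plexus makes in bulk, was at 3.10, 246 and 26.5 CPM in high-fat sham, against 5.05, 71.0 and 2.65 CPM in control sham. Each group thus had 1 library with far more Ttr than the others, replicate 2 in both. The summed level of the list was 386, 690 and 382 CPM in high-fat sham, against 354, 474 and 354 CPM in control sham, and most of it outside those libraries was Enpp2, which other cells also express. Without high-fat replicate 2 the list had 6 members above 0 and 9 below, with a median of -0.12. Striatal genes had summed levels of 621, 382 and 1034 CPM in high-fat sham, against 634, 498 and 1066 CPM in control sham, so the spread within each diet was wider than the difference between them. No defining gene of either list was at 0 in all libraries. The part of neighbouring tissue in the other differences was not tested.

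Oligodendrocyte and myelin genes lay below 0 in 18 of 20 cases, with a median of -0.09, and Gpr62 was the 1 lower at an unadjusted p under 0.05. Without high-fat replicate 2, 10 lay above and 10 below. Endothelial and barrier genes lay above 0 in 6 of 18 cases and below in 12. Sox17, an arterial transcription factor, was at 3.53, 3.76 and 3.68 CPM in high-fat sham, against 5.12, 5.25 and 4.21 CPM in control sham. Tjp1, the tight junction scaffold ZO-1, was at 133, 158 and 130 CPM in high-fat sham, against 120, 127 and 126 CPM in control sham. Lef1, a target and effector of Wnt signalling at the barrier, is also in the hippocampus and thalamus list. It was at 2.31, 3.90 and 2.62 CPM in high-fat sham, against 2.21, 1.75 and 1.94 CPM in control sham. These 3 reached that p without overlap, Sox17 lower and the other two higher, with log2 fold changes of -0.41, 0.17 and 0.58. When high-fat replicate 2 was left out, no member reached that p in edgeR, and Tjp1 and Lef1 were at 0.09 and 0.33. The tight junction gene Cldn5, at 18.1, 20.99 and 16.98 CPM in high-fat sham, was below its control levels of 22.3, 22.2 and 21.2 CPM in every library, with a log2 fold change of -0.23 ± 0.31 (SE).

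Lists of inflammation and glia showed no gene past the test. No microglia, astrocyte, activated phagocyte or cytokine gene reached an unadjusted p of 0.05 in edgeR, of 19, 18, 20 and 20 tested. Their medians were -0.06, -0.06, -0.07 and 0.01. Of 16 reactive astrocyte genes, 4 lay above 0 and 12 below, with a median of -0.07. Lcn2 was the 1 member lower at that p, and 2 members were lower without overlap, Lcn2 and Tm4sf1. The summed level of the microglia list was 585, 507 and 526 CPM in high-fat sham, against 579, 572 and 539 CPM in control sham. Gfap, the intermediate filament of astrocytes, was at 95.8, 85.6 and 91.6 CPM in high-fat sham, against 108, 97.2 and 87.2 CPM in control sham. Excitatory neuron genes lay above 0 in 16 of 20 cases and inhibitory neuron genes in 7 of 18, with no member at that p in either.

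**Figure D5:**
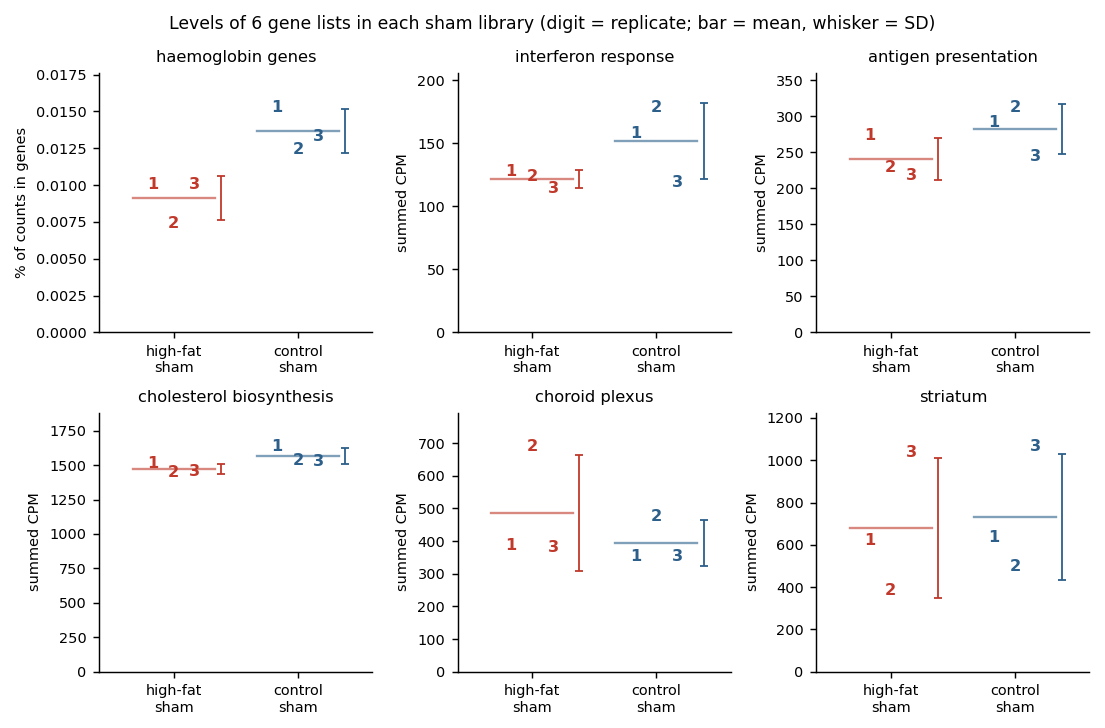
Share of counts in haemoglobin genes and summed CPM of 5 gene lists in each sham library, with digits for replicates, bars for the mean and whiskers for the SD of 3 libraries. All haemoglobin and cholesterol values of high-fat sham lie below those of control sham, and choroid plexus and striatum spread widely within each diet.

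The diet contrast in sham was set beside the same contrast in stroke, which rests on other libraries. In edgeR, 0 genes passed adjustment in 6-week stroke and 0 in 15-week stroke, with 1141 and 1299 at an unadjusted p under 0.05. In 6-week stroke 486 of these were higher and 655 lower, 2.98% and 4.01% of the genes tested, and in 15-week stroke 511 were higher and 788 lower, 3.13% and 4.83%. Of the 782 genes at that p in sham, 382 had the same sign in 6-week stroke and 364 in 15-week stroke. Across all 16325 genes, which are not independent replicates, Pearson's r of the log2 fold changes was -0.06 for each arm. Junb ran the other way after stroke at 6 weeks, at 65.8 ± 7.66 CPM in high-fat stroke (SD, n = 6) and 52.6 ± 9.06 CPM in control stroke (SD, n = 4). At 15 weeks it was at 65.6 ± 11.3 CPM in high-fat stroke (SD, n = 6) and 88.1 ± 14.1 CPM in control stroke (SD, n = 4). The difference between the diet effects in sham and in 6-week stroke was tested directly. It was called for 0 genes in edgeR, with 914 at an unadjusted p under 0.05, and for 1 gene, Junb, in DESeq2 and in voom. For Junb this difference was -1.28 ± 0.25 on the log2 scale (SE, adjusted p = 0.509 in edgeR). Ier5l, Gpr62 and Slc16a1 followed, with differences of -1.16, -0.79 and -0.55 and an adjusted p of 0.715 each in edgeR. Immediate early and clock genes are given for both stroke arms, with no test of the difference between arms. Against those shares, 6 of 32 immediate early genes were higher at an unadjusted p under 0.05 and 1 lower in 6-week stroke, while 14 were lower and none higher in 15-week stroke. Of 20 clock genes, 8 were lower at that p in 15-week stroke and all 20 lay below 0.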

How the data were processed

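Total RNA was extracted from mouse cortex and sequenced as stranded paired-end libraries, per the labels' protocols. The submitters' processing notes name Trim Galore, STAR, featureCounts, HTSeq and the build mm9, with no version or role. The deposited tables, 1 a library, hold the authors' raw whole-number counts, with 39179 Ensembl genes and 5 summary entries. The summary entries held 45.69% to 58.16% of counts and entered neither library sizes nor tests. Symbols from GENCODE M21 matched 37607 identifiers.

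Genes passed filterByExpr with a minimum count of 10. With TMM scaling, edgeR 4.0.16 (robust quasi-likelihood, R 4.3.3) fitted 1 mean for each of 6 groups to the 26 libraries, and the sham diet contrast, the stroke contrasts and their difference were tested with Benjamini-Hochberg adjustment at 0.05 over all genes. The SE is the log2 fold change divided by the square root of F. Exact two-sided permutation tests were used for single values per library. The fit was tested on simulated data of 16325 genes, with 50 genes changed at each fold. It recovered 84% of genes changed 3-fold and 82% of genes changed 2-fold. At the smaller folds simulated it recovered 34% and 10%. Replicates are numbered in accession order.

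The 39 gene lists hold 766 genes, of which 738 were tested. The comparison and the lists were chosen with earlier results of these data known. Named genes are the 12 higher and 12 lower with the smallest p, no overlap, a mean of at least 5 CPM and no predicted gene name. Up to 6 members per described list by p, and the 4 largest folds per direction, were named too. Fos, Arc, Egr1, Fosb, Nptx2, Hbb-bs, Hbb-bt, Pdk4, Ttr, Scd1, Lepr, Prdx2, Slc17a7, Tbr1, Gfap, Enpp2, Oxct1 and Cldn5 were chosen after their values were seen, as were the promoters and hairpins.

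The alternatives were RLE size factors, no filter, a minimum count of 50, 2 smaller sets of libraries, a non-robust fit, DESeq2 1.42.0, voom with quality weights in limma 3.58.1, a fit with haemoglobin, ribosomal RNA and mitochondrial genes left out, sva 3.50.0 with 1 surrogate variable, 2 covariates and leaving out each library. A transcript length offset was added after seeing the data.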

Additional observations from a re-analysis of the deposited data

Results flagged for a closer look

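The diet effect on Junb differed between sham and 6-week stroke by a test of the difference itself in both other tools, though not in edgeR. High-fat sham averaged 39.1 CPM and control sham 76.0 CPM, while 6-week high-fat stroke averaged 65.8 CPM and 6-week control stroke 52.6 CPM. DESeq2 gave a difference of -1.283 on the log2 scale with an adjusted p of 0.00612, and voom with quality weights gave -1.3757 with an adjusted p of 0.00315. edgeR gave -1.28 with an adjusted p of 0.509. The 3 high-fat sham libraries were all below the 6 high-fat stroke libraries, whose lowest was at 58.9 CPM, and the 3 control sham libraries were all above the 4 control stroke libraries, whose highest was at 61.8 CPM. Those separations lie between sham and stroke within a diet, and how many of all genes separate so is not given. In 15-week stroke, an arm without sham tissue, Junb was lower on the high-fat diet, as in sham. Its log2 fold change there was -0.42 ± 0.15 (SE, adjusted p = 0.535 in edgeR). The cause was not tested.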

How the results depend on the processing

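No gene was called in edgeR under any of its alternatives, while DESeq2 called 2 and voom with quality weights called 1. DESeq2 and voom each called 1 gene for the difference between sham and 6-week stroke. Against 782 genes at an unadjusted p under 0.05 in edgeR, voom gave 2041 genes, with 828 higher and 1213 lower, and leaving out 1 library gave between 308 and 1716 in edgeR. The lowest was without high-fat replicate 2 and the highest without high-fat replicate 1, and without control replicate 2 there were 513. The 341 higher genes became 533 with only the 16 libraries of the 6-week arm, 223 with the share of counts outside genes as a covariate, and 147 to 1137 when 1 library was left out. The 441 lower genes became 161 to 579 when 1 library was left out. Without high-fat replicate 2 the log2 fold changes of F5, Aqp1, Ttr and Egr1 turned to -0.33, -0.12, -0.80 and -0.27, and with any 1 library left out they ranged up to 1.81, 1.79, 4.6005 and 0.46. Egr1 was at -0.14 in voom. Without control replicate 1 Fosb turned to 0.36 (lowest value -1.01) and Nptx2 to 0.13 (lowest value -0.88). The cause of these changes was not tested. None of the other genes chosen by the naming rule changed direction under the 19 alternatives. No paired analysis was possible because the labels give these libraries no replicate numbers. At this depth the median SE was 0.40 for genes under 5 CPM, so differences of low genes of that size were not detectable.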
